A study of Mus musculus with 8 samples.

Results

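The genes of Wnt signalling described here are its secreted ligands, their receptors, their antagonists and a few of the proteins that act below the receptor. They were measured by RNA sequencing in whole olfactory bulbs of mice at postnatal day 30. Members were selected by gene symbol, with no threshold on a measured value. They comprise the Wnt, Frizzled (Fzd), Sfrp, Dkk, Rspo and Lgr families, together with Wif1, Lrp5, Lrp6, Axin1, Axin2, Apc, Nkd1, Nkd2, Lef1, Tcf7, Tcf7l1, Tcf7l2, Znrf3 and Rnf43. In all, 55 of the 19583 entries of the gene table qualified. The first group holds 4 libraries from mice with hGFAP-Cre and floxed alleles on both copies of Sp8 and of Sp9, called the double mutant below. The second holds 4 libraries from wild-type littermates. All mice had a mixed background of C57BL/6J, 129S6 and CD1. The human GFAP promoter drives Cre in radial glia, so the floxed parts are removed in these cells and their descendants, neurons and astrocytes among them, and stay intact in other lineages. The labels name neither Cre nor a floxed allele for the wild type, so what Cre or loxP sites do by themselves and what losing Sp8 and Sp9 does cannot be told apart. The labels also carry letters, with 2 libraries each: A and B mark double mutant libraries, C and D wild-type ones. Whether a letter stands for an animal, a pool or a preparation is not given in the sources used here, so the p-values reflect only how far libraries of a group lie apart, which may be partly technical.

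Wnt proteins are secreted lipid-modified ligands that bind a Frizzled receptor together with the co-receptor Lrp5 or Lrp6. Without a ligand, a cytoplasmic complex built on Axin and Apc marks beta-catenin for destruction. With a ligand, beta-catenin accumulates and joins Tcf and Lef factors at target genes. R-spondins bind the receptors Lgr4, Lgr5 and Lgr6 and withdraw the ubiquitin ligases Znrf3 and Rnf43, which otherwise clear Frizzled from the cell surface. Sfrp proteins and Wif1 bind Wnt ligands, and Dkk1 blocks Lrp5 and Lrp6. Axin2, Nkd1, Lef1 and Znrf3 are known feedback targets of the pathway. In the forebrain the pathway is known for its part in stem cell maintenance, in the formation of brain vessels and in the growth of axons and synapses.

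The libraries held between 11888672 and 19040797 fragments, estimated from the step size of a deposited column of scaled counts. The 2 targeted genes served as a check of the labels, and neither overlapped between the groups. Sp8 measured 7.27 ± 0.82 FPKM (fragments scaled to transcript length and library size; SD, n = 4) in the double mutant and 30.5 ± 1.0 FPKM in the wild type. Sp9 measured 6.74 ± 0.53 and 24.1 ± 0.9 FPKM. Library pairs were compared only within a group, by the median chi-square over genes relative to that of sampling noise. It was 1.17 to 1.45 for pairs of the same letter and 1.56 to 2.35 for pairs of different letters. Every pair exceeded the sampling noise, and each library was counted as 1 sample, although libraries of a letter lay closer and may share a source. On the means of the letters (2 against 2), limma called 22 members higher and 9 lower, against 24 and 10 on single libraries. The double mutant libraries of letter B stood apart in Xist, the RNA of X inactivation, with 0.0538 and 0.0364 FPKM against 76.8 to 115 FPKM in the other 6 libraries. Xist is made where an X is inactivated, as in female tissue. The sexes may thus not be balanced between the groups or between the letters, and the part of sex in the results was not tested. Results that rest on letter A or B are given with and without it.

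Most members that could be tested differed between the groups, and more were higher than lower. The Lgr receptors fell together. Wnt6, the co-receptor Lrp5, several Frizzled receptors and the antagonists Sfrp1 and Sfrp5 rose. Of the 55 members, 45 averaged 0.5 FPKM or more and were tested with limma on log2(FPKM + 0.5), a scale that understates the change of low genes. At an adjusted p below 0.05, 24 rose, 10 fell and 11 did not pass. The called share was 75.6%, against 65.3% of all 14349 genes tested. Calls of a rise made up 53.3% of the members, against 28.8% of all genes. Calls of a fall made up 22.2%, against 36.5%. A call with a change of at least 0.5 on the log2 scale was made for 23 of the 45, or 51.1%, against 20.4% of all genes. No overlap between the groups was seen for 34 of the 45, or 75.6%, against 59.1% of all genes. The median log2 change was 0.22 over the 45 members and -0.04 over all genes tested. Scaling the columns to their upper quartile gave 26 members higher and 9 lower. That scaling moved the share of rises among the calls of all genes from 44.1% to 55.1%. In whole tissue, fewer cells of a type and less RNA per cell cannot be told apart for a fall. For a rise, a larger share of a cell type in the tissue and more RNA per cell cannot be told apart either. FPKM is relative to the whole library, so a gene can also rise because other RNA fell. These limits hold for each member below.

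**Figure D1:**
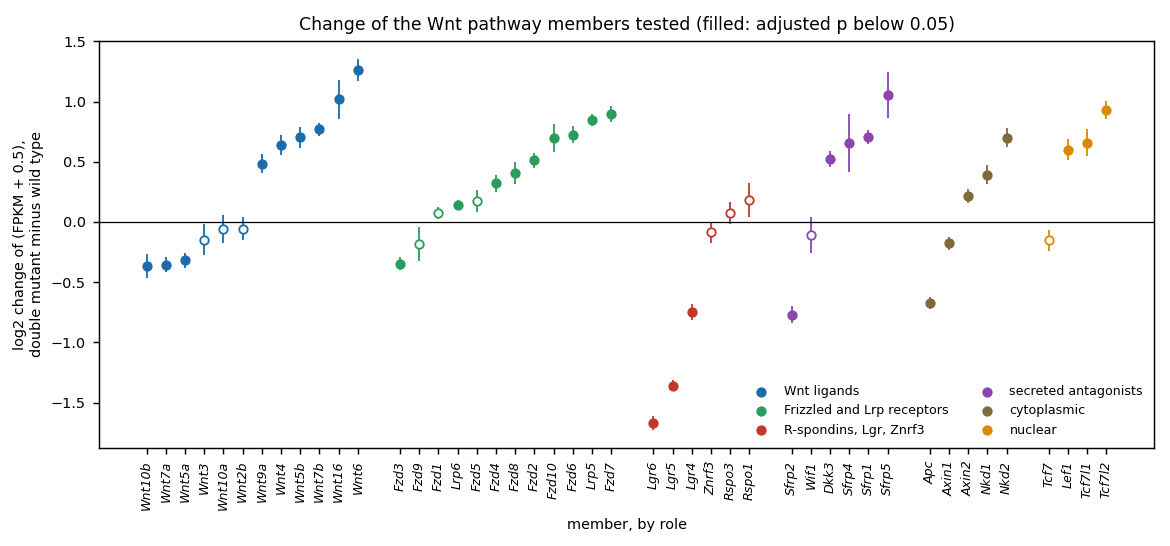
Log2 change of FPKM + 0.5 (vertical axis, double mutant minus wild type) of the 45 members tested, ordered by role and size; bars are the SE of the limma fit and open points did not pass at an adjusted p of 0.05. The 3 Lgr genes are the lowest points of their role and Wnt6 is the highest point on this scale, at 1.26.

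Markers of the cell types of the bulb moved in the same libraries, and their part in the results on the members was not tested. Sums are given as the range over the wild-type libraries and then over the double mutant ones. The tissue label was met by bulb markers in both groups, with Eomes of projection neurons at 45.6 ± 0.6 FPKM in the wild type and 84.0 ± 3.5 FPKM in the double mutant. Of 10 markers of GABAergic interneurons, 8 fell and 0 rose, and their summed level went from between 1647 and 1683 FPKM to between 781 and 858 FPKM. Of 10 neuroblast markers, 7 fell and 2 rose, with sums of 689.6 to 737 FPKM and 514 to 561 FPKM. All 9 mitral and tufted cell markers rose (sums of 567 to 605 FPKM and 845 to 913 FPKM), as did all 11 of astrocytes, of which S100b is also in the list of ensheathing cells (1021 to 1120 FPKM and 1510 to 1558 FPKM). All 5 markers of olfactory ensheathing cells rose (1123 to 1292 FPKM and 2421 to 2764 FPKM), and all 8 of meninges and fibroblasts (2397 to 2773 FPKM and 4121 to 4537 FPKM). Of 12 vessel markers, 10 rose (256 to 272 FPKM and 415 to 460 FPKM). All 8 markers of dividing cells rose (2.27 to 3.68 FPKM and 19.2 to 21.6 FPKM). Of the other lists, 7 of 10 microglia markers rose (199 to 233 FPKM and 265 to 301 FPKM), 5 of 7 of olfactory sensory neurons (382 to 549.7 FPKM and 765 to 896 FPKM), all 3 tested of ependyma and all 5 of oligodendrocyte precursors. Of 8 oligodendrocyte markers, 2 rose and 1 fell, and their sums overlapped between the groups. No marker of any list was at 0 in all libraries of a group.

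**Figure D2:**
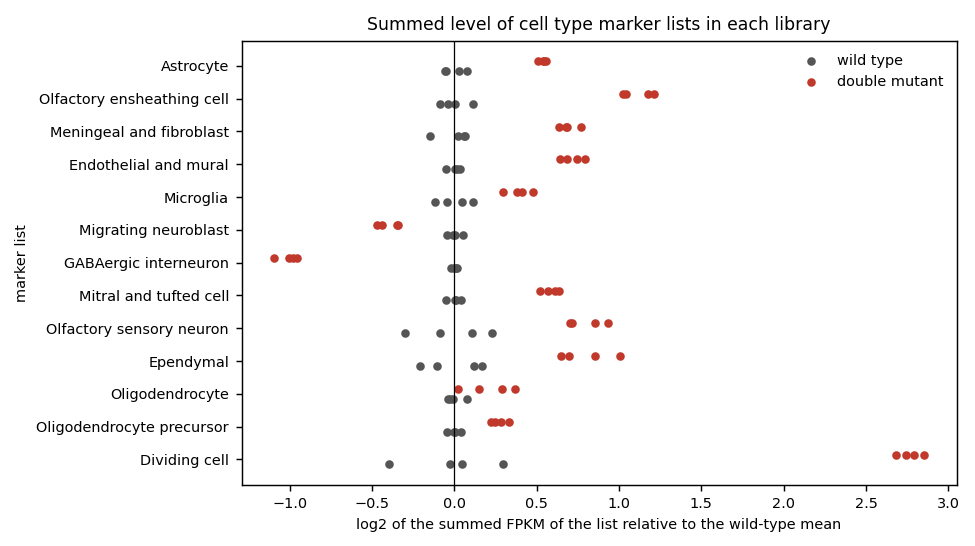
Summed FPKM of each cell type marker list in every library, as log2 relative to the wild-type mean (horizontal axis), for wild type (grey) and double mutant (red). The sums of interneuron and neuroblast markers lie below 0 in all 4 double mutant libraries, and those of the other lists lie above it.

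The promoters of 4 members are shown because Sp family factors bind GC-rich DNA, and because these 4 take in the ligand with the highest level in the double mutant, which rose (Wnt6), a fall of a close relative in role (Wnt7a) and a pair of the receptors that fell together (Lgr4 and Lgr6). Each window spans 250 bases before to 50 bases after a RefSeq start on GRCm38.p6 and is written 5′ to 3′ on the strand of the gene. The windows are chr2:109917397-109917696 (plus strand) for Lgr4, chr1:135105227-135105526 (minus strand) for Lgr6, chr1:74771642-74771941 (plus strand) for Wnt6 and chr6:91411304-91411603 (minus strand) for Wnt7a. Capitals mark the GC box, GGGCGG on either strand, and adjacent or overlapping copies run together.
Lgr4: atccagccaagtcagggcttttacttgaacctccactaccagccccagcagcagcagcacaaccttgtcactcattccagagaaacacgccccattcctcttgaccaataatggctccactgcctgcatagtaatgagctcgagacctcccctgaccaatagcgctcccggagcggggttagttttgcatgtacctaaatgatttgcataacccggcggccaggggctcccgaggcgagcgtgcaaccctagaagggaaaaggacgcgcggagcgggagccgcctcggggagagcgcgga
Lgr6: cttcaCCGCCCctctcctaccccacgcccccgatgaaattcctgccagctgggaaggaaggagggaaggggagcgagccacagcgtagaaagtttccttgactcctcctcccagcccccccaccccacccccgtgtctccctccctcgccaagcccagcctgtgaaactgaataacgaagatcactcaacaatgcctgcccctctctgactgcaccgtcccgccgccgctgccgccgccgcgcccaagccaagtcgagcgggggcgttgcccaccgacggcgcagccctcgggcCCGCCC
Wnt6: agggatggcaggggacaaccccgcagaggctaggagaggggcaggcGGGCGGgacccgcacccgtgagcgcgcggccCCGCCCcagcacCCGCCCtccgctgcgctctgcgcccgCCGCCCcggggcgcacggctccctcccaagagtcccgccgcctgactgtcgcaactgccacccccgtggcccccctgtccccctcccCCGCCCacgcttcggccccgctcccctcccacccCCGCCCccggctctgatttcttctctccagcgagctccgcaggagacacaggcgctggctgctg
Wnt7a: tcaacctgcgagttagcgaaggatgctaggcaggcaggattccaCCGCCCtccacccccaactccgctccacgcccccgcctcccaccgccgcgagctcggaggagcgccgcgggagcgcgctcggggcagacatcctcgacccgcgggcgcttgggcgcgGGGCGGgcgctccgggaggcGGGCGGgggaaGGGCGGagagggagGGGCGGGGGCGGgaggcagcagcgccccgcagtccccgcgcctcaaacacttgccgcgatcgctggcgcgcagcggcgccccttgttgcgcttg
The window of Lgr4 holds 0 copies of these letters, that of Lgr6 holds 2, and those of Wnt6 and Wnt7a hold 6 each. A promoter entry was matched for 36 of the 55 members. A GC box was in at least 1 window of 26 of these 36, in 12 of the 15 matched members that rose and in 2 of the 5 that fell. Counted in the same way, per gene with at least 1 window, 72.2% of the matched members hold it, against 38.2% of 27025 genes with a window and 68.4% of the 10615 of these that were tested. Per window, the letters are in 68.9% of 45 member windows, 35.7% of all 32851 windows and 61.1% of the 13638 windows of tested genes. The letters CTTTGAA or CTTTGAT on either strand, which Tcf and Lef factors are known to bind and which can share at most 1 base with a GC box, were in a window of 3 of the 36, among them 1 of the 15 that rose and 0 of the 5 that fell. Per gene this is 8.33%, against 9.88% of all genes with a window and 6.93% of those tested. Per window, they were in 8.65% of all windows and in 5.76% of those of tested genes. A match is a description of the letters and says nothing of a bound site.

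Among the tested ligands, Wnt6 had the largest log2 change at the pseudocount of 0.5 and became the ligand with the highest level. At a pseudocount of 0.1 the change of Wnt16, a low ligand, was larger (1.47, against 1.30 for Wnt6). Of 17 ligand genes in the table, 12 were tested, of which 6 rose (Wnt4, Wnt5b, Wnt6, Wnt7b, Wnt9a and Wnt16), 3 fell (Wnt5a, Wnt7a and Wnt10b) and 3 did not pass. Their median log2 change was 0.21. Wnt6 (chr1:74771892-74785322, plus strand), a ligand known from epithelia, measured 5.88, 8.30, 7.93 and 8.09 FPKM in wild-type replicates 1 to 4 and 19.3, 19.3, 18.3 and 17.6 FPKM in double mutant replicates 1 to 4. Every double mutant library exceeded every wild-type library, and wild-type replicate 1 was the lowest of all. The log2 change was 1.26 ± 0.09 (SE over 4 libraries a group, limma adjusted p = 8.59e-07), and the mean was 2.47 times the wild-type mean.

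Wnt7a and Wnt7b are close relatives that signal to the endothelium of brain vessels, and here they moved in opposite directions. Wnt7b (chr15:85535437-85582473, minus strand) measured 4.96, 4.24, 4.64 and 4.44 FPKM in the wild type and 7.85, 8.35, 8.30 and 8.08 FPKM in the double mutant, with no overlap, and rose by 0.77 ± 0.05 (SE, limma adjusted p = 6.54e-07) on the log2 scale. Its exons overlap 324 bases of AU022754 on the opposite strand, and reads there cannot be assigned without a stated strand setting. Wnt7a (chr6:91363981-91411363, minus strand) measured 13.5, 14.6, 14.4 and 13.8 FPKM in the wild type and 10.4, 9.82, 11.3 and 12.2 FPKM in the double mutant. The groups did not overlap, and letter B lay closer to the wild type than letter A did. The log2 change of Wnt7a was -0.35 ± 0.06 (SE, limma adjusted p = 0.000571). The ratio of Wnt7b to Wnt7a within a library, which no scaling of the columns changes, went from 0.326 ± 0.031 to 0.751 ± 0.077 (SD, n = 4), and the lowest double mutant ratio (0.664) exceeded the highest of the wild type (0.367).

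A similar opposition held for the relatives Wnt5a and Wnt5b, ligands best known for signalling without beta-catenin. Wnt5a measured 10.8, 10.8, 11.9 and 11.8 FPKM in the wild type and 9.30, 7.98, 9.67 and 8.98 FPKM in the double mutant. The groups did not overlap, and it fell by 0.32 ± 0.06 on the log2 scale (SE, limma adjusted p = 0.00114). Wnt5b (chr6:119432531-119544347, minus strand) measured 1.45, 1.58, 1.38 and 1.51 FPKM in the wild type and 2.79, 3.08, 2.29 and 2.78 FPKM in the double mutant. It was higher in all 4 double mutant libraries, with a log2 change of 0.70 ± 0.09 (SE, limma adjusted p = 4.03e-05).

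The other ligands were at low levels. Wnt4 (chr4:137277489-137299726, plus strand), which acts in kidney and gonad development, measured 1.08, 1.22, 0.963 and 0.984 FPKM in the wild type and 1.96, 1.89, 1.80 and 2.08 FPKM in the double mutant. The groups did not overlap, with a log2 change of 0.64 ± 0.08 (SE, limma adjusted p = 6.44e-05). Wnt16 (chr6:22288227-22298522, plus strand), a ligand with a known part in bone, measured 0.882, 0.287, 0.508 and 0.386 FPKM in the wild type and 1.41, 1.78, 1.53 and 1.35 FPKM in the double mutant. Each value rests on 7 to 42 fragments. The double mutant libraries all lay above wild-type replicate 1, itself well above the other wild-type libraries, and the log2 change was 1.02 ± 0.16 (SE, limma adjusted p = 0.000286). Wnt9a rose by 0.48 ± 0.08 on the log2 scale (limma adjusted p = 0.00038). Wnt10b fell by 0.37 ± 0.10 (limma adjusted p = 0.00921), with an adjusted p of 0.0762 without letter D. Wnt10a, Wnt2b and Wnt3 did not pass, with log2 changes of -0.06 ± 0.11, -0.06 ± 0.10 and -0.15 ± 0.13. Wnt3 passed under quantile normalization (-0.33, limma adjusted p = 0.0437) and without letter D (-0.34, limma adjusted p = 0.0487), and its change was 0.05 without letter C. Wnt1, Wnt2, Wnt8a, Wnt9b and Wnt11 were below the level needed for a test.

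Because FPKM is scaled to length, the ligands can be set side by side. The summed level of the 17 ligands was 49.5 ± 1.6 FPKM in the wild type and 61.9 ± 0.5 FPKM in the double mutant (SD, n = 4), and no library of either group reached the range of the other. In the wild type the 4 highest mean levels were those of Wnt7a (14.1 ± 0.5 FPKM), Wnt5a (11.3 ± 0.6), Wnt6 (7.55 ± 1.12) and Wnt7b (4.57 ± 0.31), and the ranges of these 4 did not overlap. In the double mutant they were those of Wnt6 (18.6 ± 0.8 FPKM), Wnt7a (10.9 ± 1.0), Wnt5a (8.99 ± 0.72) and Wnt7b (8.14 ± 0.23). There the ranges of Wnt5a and Wnt7b overlapped, since Wnt5a reached down to 7.98 FPKM and Wnt7b up to 8.35 FPKM. The share of Wnt6 in the ligand sum went from 15.2% ± 2.0 to 30.1% ± 1.5, and that of Wnt7a from 28.4% ± 0.6 to 17.6% ± 1.6. Wnt5a went from 22.9% ± 0.9 to 14.5% ± 1.1 of the sum.

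**Figure D3:**
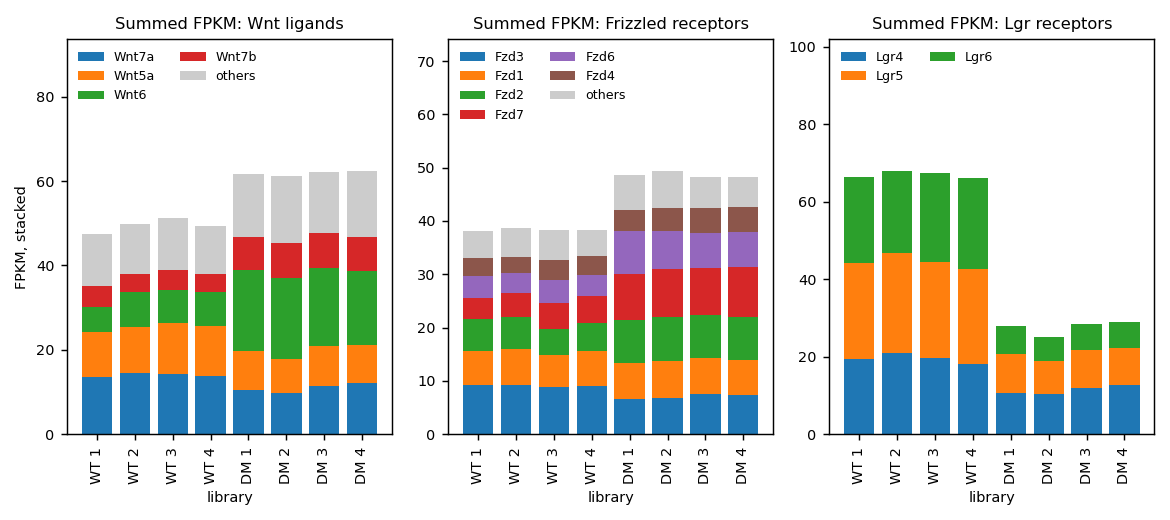
Stacked FPKM of the Wnt ligands, the Frizzled receptors and the Lgr receptors in each of the 4 wild-type (WT) and 4 double mutant (DM) libraries, by replicate number. The Wnt6 layer widens in the double mutant, the Frizzled sum goes from 38.3 to 48.6 FPKM on average, and the Lgr sum drops from 66.9 to 27.6 FPKM.

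Receptors for Wnt ligands were mostly higher. Of 12 members, all tested, 8 rose (Fzd2, Fzd4, Fzd6, Fzd7, Fzd8, Fzd10, Lrp5 and Lrp6), 1 fell (Fzd3) and 3 did not pass, with a median log2 change of 0.36. Fzd7 (chr1:59482424-59486955, plus strand), a receptor used by many stem cells, measured 4.01, 4.51, 4.98 and 5.04 FPKM in the wild type and 8.71, 9.13, 8.91 and 9.42 FPKM in the double mutant. Its mean in the double mutant was 1.95 times that in the wild type, without overlap, with a log2 change of 0.90 ± 0.07 (SE, limma adjusted p = 1.13e-06). Fzd6 (chr15:39006034-39038188, plus strand), known from planar polarity of skin and hair, measured 4.19, 3.86, 4.27 and 4.0 FPKM in the wild type and 8.10, 7.06, 6.56 and 6.67 FPKM in the double mutant. Double mutant replicate 1 was the highest, no library overlapped, and the log2 change was 0.73 ± 0.07 (SE, limma adjusted p = 5.89e-06). Fzd2 (chr11:102604396-102608058, plus strand) measured 5.86, 5.94, 4.81 and 5.32 FPKM in the wild type and 7.91, 8.10, 8.02 and 7.98 FPKM in the double mutant. Its double mutant values were tightly grouped above all wild-type values, with a log2 change of 0.51 ± 0.06 (SE, limma adjusted p = 4.42e-05). Fzd4, the receptor of the ligand Norrin in vessels, and Fzd8 rose by 0.32 ± 0.07 (limma adjusted p = 0.00264) and 0.40 ± 0.09 (limma adjusted p = 0.0029). Fzd10 rose from 0.306 ± 0.082 to 0.803 ± 0.073 FPKM, on 7 to 49 fragments per library. At this level its log2 change depended on the pseudocount, with 0.70 at 0.5, 1.18 at 0.1 and 0.47 at 1.

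Fzd3, which guides axons and has the highest Frizzled level of the wild-type bulb, was the receptor that fell. It measured 9.24, 9.17, 8.77 and 9.12 FPKM in the wild type and 6.60, 6.71, 7.51 and 7.36 FPKM in the double mutant. Every double mutant library lay below the wild type, and it fell by 0.35 ± 0.05 on the log2 scale (SE, limma adjusted p = 0.000169). Its share of the summed Frizzled level went from 23.7% ± 0.5 to 14.5% ± 1.1, and that of Fzd7 from 12.1% ± 1.2 to 18.6% ± 0.7 (SD, n = 4). The sum itself was 38.3 ± 0.2 FPKM in the wild type and 48.6 ± 0.5 FPKM in the double mutant. Fzd1, Fzd5 and Fzd9 did not pass, with log2 changes of 0.08, 0.17 and -0.18. Fzd1 and Fzd5 passed under upper quartile scaling (0.14 and 0.22, limma adjusted p = 0.0254 and 0.0487), as did Fzd5 in the scaled columns (0.29, limma adjusted p = 0.0145). Fzd9 differed between the letters of the double mutant. It measured 2.25 and 3.10 FPKM in letter A, 1.79 and 1.64 FPKM in letter B and 2.33 to 2.65 FPKM in the wild type. Its change was -0.44 without letter A (limma adjusted p = 0.00352), 0.07 without letter B (limma adjusted p = 0.624) and -0.33 without double mutant replicate 2 (limma adjusted p = 0.0169).

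The co-receptors Lrp5 and Lrp6 both rose, by unequal amounts. Lrp5 (chr19:3584828-3686564, minus strand), whose loss is known to lower bone mass, measured 4.41, 4.97, 4.81 and 4.38 FPKM in the wild type and 9.17, 8.64, 8.59 and 8.58 FPKM in the double mutant. The double mutant values lay near 1.88 times the wild-type mean, with a log2 change of 0.85 ± 0.05 (SE, limma adjusted p = 3e-07). Lrp6, the receptor-role member with the highest level, measured 10.5, 10.5, 10.03 and 11.2 FPKM in the wild type and 11.8, 11.4, 11.7 and 11.8 FPKM in the double mutant. The groups did not overlap but lay close together, with a log2 change of 0.14 ± 0.04 (SE, limma adjusted p = 0.0107). That call was lost on the means of the letters (limma adjusted p = 0.0598) and without letter B or C (limma adjusted p = 0.0542 and 0.065). The ratio of Lrp5 to Lrp6 went from 0.442 ± 0.043 to 0.747 ± 0.023, with no overlap between the groups.

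Lgr5 and Lgr6, receptors of R-spondins, had the largest falls of the 45 members tested and Lgr4 fell with them, while Rspo1, Rspo3 and Znrf3, the other members of this arm that were tested, did not pass. Lgr6 (chr1:134983301-135105276, minus strand), a stem cell marker of the hair follicle, measured 22.1, 21, 22.9 and 23.4 FPKM in the wild type and 7.27, 6.11, 6.72 and 6.67 FPKM in the double mutant. Its double mutant mean was 29.9% of the wild-type mean, with a log2 change of -1.67 ± 0.05 (SE, limma adjusted p = 4.39e-09). Lgr5 (chr10:115450311-115587780, minus strand), the stem cell marker of the gut, measured 25, 26, 24.8 and 24.5 FPKM in the wild type and 9.96, 8.66, 9.76 and 9.57 FPKM in the double mutant. This was 37.8% of the wild-type mean, with a log2 change of -1.36 ± 0.05 (SE, limma adjusted p = 5.48e-09). Lgr4 (chr2:109917647-110014257, plus strand), the most widely expressed of the 3 receptors in the body, measured 19.3, 20.8, 19.6 and 18.2 FPKM in the wild type and 10.6, 10.3, 12 and 12.7 FPKM in the double mutant. Its mean came to 58.6% of the wild type, with a log2 change of -0.75 ± 0.07 (SE, limma adjusted p = 3.98e-06). For all 3 genes every double mutant library lay below every wild-type library, and their calls held under each of the 23 alternatives run. The interneuron marker sum was lower in the same 4 libraries (781 to 858 FPKM against 1647 to 1683 FPKM), and its part in the Lgr results was not tested.

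In the wild type the order of the mean levels was Lgr5 (25.1 ± 0.7 FPKM), Lgr6 (22.4 ± 1.0) and Lgr4 (19.5 ± 1.1), without overlap between neighbours. In the double mutant it was Lgr4 (11.4 ± 1.1 FPKM), Lgr5 (9.49 ± 0.57) and Lgr6 (6.69 ± 0.47), again without overlap. Their sum went from 66.9 ± 0.9 to 27.6 ± 1.7 FPKM (SD, n = 4). Within this sum, Lgr4 took 29.1% ± 1.3 in the wild type and 41.3% ± 2.4 in the double mutant, and Lgr6 took 33.4% ± 1.8 and 24.3% ± 1.3.

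Rspo3 was the R-spondin with a substantial level, at 91.0% ± 1.7 of their summed FPKM in the wild type and 89.6% ± 2.5 in the double mutant. It measured 9.83, 10.5, 10.7 and 11.3 FPKM in the wild type and 9.90, 9.77, 12.6 and 12.8 FPKM in the double mutant. Letter A lay at the low end of the wild type and letter B above it. The log2 change was 0.08 ± 0.09 (SE, limma adjusted p = 0.477). It was 0.25 without letter A (limma adjusted p = 0.00672) and -0.10 without letter B (limma adjusted p = 0.185). Per library, the ratio of Lgr5 to Rspo3 went from 2.38 ± 0.17 to 0.854 ± 0.117. Rspo1 measured 0.66 ± 0.21 FPKM in the wild type and 0.805 ± 0.127 FPKM in the double mutant and did not pass (limma adjusted p = 0.285). The ubiquitin ligase gene Znrf3 measured 2.56 ± 0.29 and 2.38 ± 0.22 FPKM and did not pass (log2 change -0.09 ± 0.09, limma adjusted p = 0.409), though it did under quantile normalization (-0.22, limma adjusted p = 0.042). Rspo2, Rspo4 and the ligase gene Rnf43 were too low for a test.

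Of the 8 secreted antagonists selected as members, 6 were tested. Dkk3, Sfrp1, Sfrp4 and Sfrp5 rose, Sfrp2 fell and Wif1 did not pass, and the call of Sfrp4 rested on letter B. In counts, 4 rose and 1 fell, with a median log2 change of 0.59. Sfrp1 (chr8:23411502-23449632, plus strand) measured 5.38, 5.22, 5.58 and 5.96 FPKM in the wild type and 8.85, 9.33, 8.92 and 10.2 FPKM in the double mutant, with no overlap and a log2 change of 0.70 ± 0.06 (SE, limma adjusted p = 2.55e-06). Sfrp2 (chr3:83766321-83774316, plus strand), its close relative, measured 3.20, 3.24, 3.66 and 3.65 FPKM in the wild type and 1.88, 1.80, 1.89 and 1.65 FPKM in the double mutant. All double mutant libraries lay below all wild-type libraries, with a log2 change of -0.77 ± 0.07 (SE, limma adjusted p = 5.06e-06). The ratio of Sfrp1 to Sfrp2 within a library thus went from 1.61 ± 0.07 to 5.20 ± 0.71.

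Sfrp5 (chr19:42197971-42202252, minus strand) measured 1.70, 2.21, 3.12 and 2.84 FPKM in the wild type and 4.74, 4.38, 8.16 and 5.52 FPKM in the double mutant. The groups did not overlap although both were spread, and double mutant replicate 3 was the highest. The log2 change was 1.05 ± 0.19 (SE, limma adjusted p = 0.000705). Sfrp4 (chr13:19623104-19632994, plus strand) measured 2.32, 1.73, 1.19 and 1.67 FPKM in the wild type and 1.85, 2.19, 4.58 and 3.88 FPKM in the double mutant. Only the libraries of letter B lay above the wild-type range, and those of letter A lay within it. The log2 change was 0.65 ± 0.24 (SE, limma adjusted p = 0.0344), but 0.20 without letter B (limma adjusted p = 0.373) and 1.11 without letter A (limma adjusted p = 0.00113). The call of Sfrp4 was also lost without double mutant replicate 3 or 4 (0.47 and 0.54, limma adjusted p = 0.0918 and 0.0915), and without wild-type replicate 2, 3 or 4 (limma adjusted p = 0.0591, 0.0925 and 0.0631). It was lost as well without letter D (0.46, limma adjusted p = 0.209), on the means of the letters (limma adjusted p = 0.105), with the replicate block (limma adjusted p = 0.0664), under quantile normalization (limma adjusted p = 0.105) and with no filter on low values (limma adjusted p = 0.063).

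Dkk3 (chr7:112116017-112159057, minus strand), a divergent Dkk family member, had the highest mean over the 8 libraries among the antagonists selected as members. Frzb, an Sfrp relative outside the members, was higher in both groups, as given below. It measured 5.98, 6.66, 5.36 and 6.13 FPKM in the wild type and 8.23, 8.94, 9.25 and 9.10 FPKM in the double mutant, with no overlap and a log2 change of 0.52 ± 0.06 (SE, limma adjusted p = 4.41e-05). Dkk2 measured at most 0.23 FPKM in any library. Dkk1 was listed at 0 in 6 of the 8 libraries, with 0.019 FPKM in double mutant replicate 4 and 0.0238 FPKM in wild-type replicate 2, a single fragment each. Wif1 measured 1.91, 1.59, 0.901 and 1.53 FPKM in the wild type and 1.14, 1.48, 1.29 and 1.33 FPKM in the double mutant, and the groups overlapped. Its log2 change was -0.11 ± 0.15 (SE, limma adjusted p = 0.554). It turned to 0.10 without letter C (limma adjusted p = 0.618) and passed without letter D (-0.31, limma adjusted p = 0.0449) or without wild-type replicate 3 (-0.27, limma adjusted p = 0.0467).

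**Figure D4:**
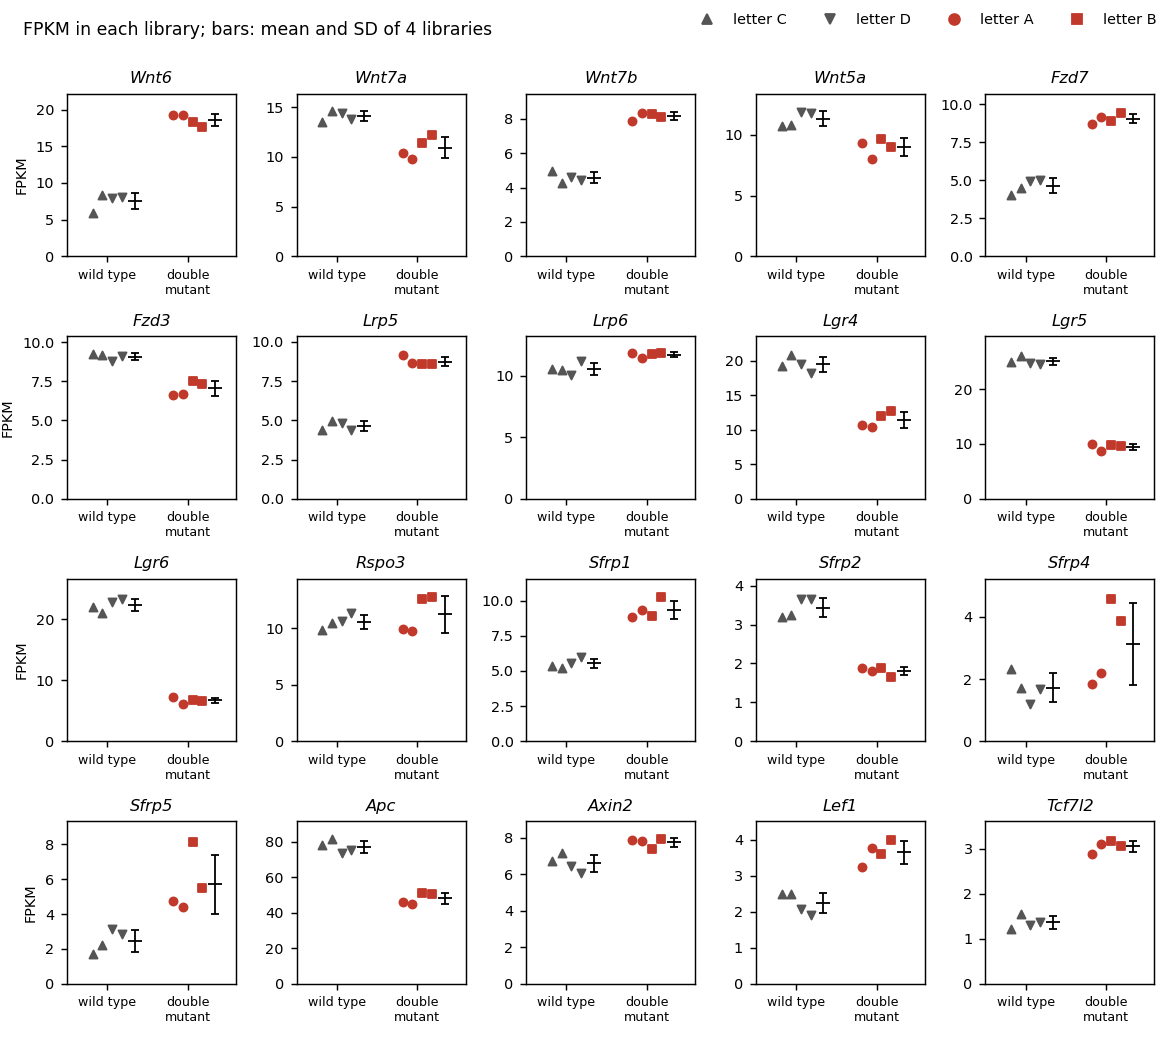
FPKM (vertical axis, from 0) of 20 members in each library, with wild type in grey and double mutant in red, marker shapes for the letters, and bars for the mean and SD of 4 libraries. Lgr4, Lgr5 and Lgr6 separate without overlap, whereas in Rspo3 and Sfrp4 the groups overlap and the libraries of letter B lie above those of letter A. Letter B also lies above letter A in Lgr4, Sfrp5, Wnt7a, Fzd3 and Apc.

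Among the cytoplasmic regulators, Apc and Axin1 of the destruction complex fell, and Axin2, Nkd1 and Nkd2 rose. All 5 passed the test. Apc, the member with the highest level, measured 78.2, 81.3, 73.5 and 75.1 FPKM in the wild type and 46.3, 45, 51 and 50.6 FPKM in the double mutant. It came to 62.6% of the wild-type mean, with letter A slightly below letter B, and the log2 change was -0.67 ± 0.05 (SE, limma adjusted p = 8.07e-07). Nkd2 (chr13:73818534-73847631, minus strand), which binds Dishevelled and limits the signal, measured 3.65, 3.41, 4.40 and 4.42 FPKM in the wild type and 6.95, 6.49, 6.71 and 6.75 FPKM in the double mutant. The double mutant libraries were closely grouped above the wild type, with a log2 change of 0.70 ± 0.08 (SE, limma adjusted p = 2.11e-05). Nkd1 rose by 0.39 ± 0.08 (limma adjusted p = 0.00107). Of the feedback targets named at the start, Axin2, Nkd1 and Lef1 rose and Znrf3 did not pass. Axin2, the target gene most often used as a readout of the pathway, measured 6.74, 7.18, 6.45 and 6.07 FPKM in the wild type and 7.86, 7.81, 7.39 and 7.93 FPKM in the double mutant. The groups were close without overlap, and the log2 change was 0.22 ± 0.06 (SE, limma adjusted p = 0.00556), with an adjusted p of 0.0634 without letter D. Axin1 fell by 0.18 ± 0.05 (limma adjusted p = 0.0118). The call of Axin1 was lost under upper quartile scaling (-0.11, limma adjusted p = 0.0607), on the means of the letters (limma adjusted p = 0.0733), and without letter A (-0.13, limma adjusted p = 0.0925) or letter D (-0.12, limma adjusted p = 0.117).

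Of the 4 nuclear factors, Lef1, Tcf7l1 and Tcf7l2 rose and Tcf7 did not pass. Tcf7l2 (chr19:55741820-55933654, plus strand) measured 1.22, 1.56, 1.31 and 1.38 FPKM in the wild type and 2.89, 3.10, 3.18 and 3.07 FPKM in the double mutant, 2.24 times the wild-type mean and without overlap. Its log2 change was 0.93 ± 0.08 (SE, limma adjusted p = 1.73e-06). Tcf7l1 (chr6:72626378-72789254, minus strand), which acts mostly as a repressor, measured 1.45, 1.86, 2.27 and 1.61 FPKM in the wild type and 2.78, 2.97, 3.57 and 3.10 FPKM in the double mutant. Its log2 change was 0.66 ± 0.11 (SE, limma adjusted p = 0.000465), and its exons overlap 179 bases of Gm15401 on the opposite strand. Lef1 (chr3:131110471-131224356, plus strand), both an effector and a target of the pathway, measured 2.48, 2.49, 2.08 and 1.92 FPKM in the wild type and 3.23, 3.77, 3.61 and 4.0 FPKM in the double mutant. No library overlapped, with a log2 change of 0.60 ± 0.09 (SE, limma adjusted p = 0.000174). Tcf7 measured 4.15, 3.88, 4.25 and 4.13 FPKM in the wild type and 4.37, 3.54, 3.06 and 3.69 FPKM in the double mutant. Double mutant replicate 1 was the highest of all 8 values while the other double mutant libraries lay below the wild type. The change of Tcf7 was -0.15 ± 0.09 (SE, limma adjusted p = 0.147), and it was -0.23 without double mutant replicate 1 (limma adjusted p = 0.0195) and -0.25 without letter A (limma adjusted p = 0.0297). The share of Tcf7 in the sum of the 4 went from 43.2% ± 2.6 to 27.2% ± 4.2, and that of Tcf7l2 from 14.4% ± 1.4 to 22.7% ± 0.9.

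Other genes of the pathway were listed by function, with 79 of 86 in the table tested. Of these, 34 rose (43.0%, against 28.8% of all genes tested), 32 fell (40.5%, against 36.5%) and 13 did not pass, with a median log2 change of 0.04. In all 83.5% were called, against 65.3% of all genes. By list, the directions differed. All 8 tested genes of a list of other modulators, most of them secreted and some at the membrane, rose (median 0.74). Apcdd1, a membrane inhibitor, went from 46.0 ± 1.4 to 81.6 ± 3.0 FPKM. Frzb, an Sfrp relative, went from 43.4 ± 1.1 to 81.3 ± 4.5 FPKM. Of 12 further receptors and receptor partners, 9 rose, 1 fell and 2 did not pass (median 0.43). Among them Lrp4 rose from 10.3 ± 0.4 to 20.5 ± 0.9 FPKM, and Gpr124, the partner for Wnt7a and Wnt7b on vessels, rose from 9.03 ± 0.16 to 14.3 ± 0.2 FPKM.

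Cytoplasmic transducers went the other way, with 14 of 20 lower, 2 higher and 4 not past the test (median -0.21). The casein kinase gene Csnk1a1 fell from 79.0 ± 0.6 to 60.9 ± 1.8 FPKM. The beta-catenin gene Ctnnb1 rose from 189.9 ± 4.9 to 207 ± 1 FPKM, and Ctnnbip1, an inhibitor of beta-catenin, rose from 31.1 ± 1.4 to 40.9 ± 0.4 FPKM. Of 12 nuclear cofactors, 7 fell and 1 rose (median -0.20). The corepressor gene Tle3 fell from 14.6 ± 0.2 to 9.50 ± 0.37 FPKM and the chromatin remodeller gene Chd8 from 16.1 ± 0.3 to 13.0 ± 0.6 FPKM, while Aes measured 219 ± 3 and 215 ± 5 FPKM and did not pass. Planar cell polarity genes were mixed, with 7 of 13 higher and 5 lower (median 0.22). Daam2 rose from 16.8 ± 1.2 to 29.2 ± 1.1 FPKM and Prickle1 fell from 23.8 ± 1.0 to 13.9 ± 1.3 FPKM. For secretion, the Wnt carrier gene Wls rose from 42.3 ± 0.7 to 59.1 ± 3.8 FPKM, the acyltransferase gene Porcn fell from 26.1 ± 1.1 to 23.7 ± 0.4 FPKM and Notum did not pass. Of 11 tested genes listed as Wnt targets, 6 rose, 4 fell and 1 did not pass (median 0.30). In the mouse the listed symbol Tcf3 names a gene outside the Tcf and Lef factors of the pathway. It was counted among the rises here and in all lists together, and its change (0.30) is the median. Ccnd1 rose from 8.82 ± 0.61 to 16.1 ± 0.7 FPKM and Tnfrsf19 from 16.1 ± 1.2 to 26.2 ± 0.4 FPKM, while Jun measured 22.4 ± 0.6 and 24.4 ± 2.9 FPKM and did not pass.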

How the data were processed

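RNA from whole olfactory bulbs was sequenced in 4 double mutant and 4 wild-type libraries. The authors deposited 1 table with 19583 entries. Per the file headers it holds an FPKM column for each library, and a second deposited column for each library whose values are signal, that is fragment counts scaled between libraries. TopHat, the build GRCm38.p4 and Cufflinks 2.1.1 appear in the submitters' processing notes. For the annotation, strand setting and filters, the processing is not given in the sources used here. In each scaled column, 98.2% to 98.4% of values were whole multiples (within 0.02) of 1 step, whose inverse gave the fragment numbers, from 11888672 to 19040797 per library. The values themselves are not whole numbers and the recovery of whole fragments was not complete, so no count test was run.

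Groups come from the labels. FPKM values were tested as log2(FPKM + 0.5) with limma 3.58.1 in R 4.3.3 (moderated test with a mean-variance trend, two-sided), over the 14349 entries that averaged 0.5 FPKM or more. Benjamini-Hochberg adjustment covered all of these entries, and calls were made below 0.05. The test was tried on simulated data. Other steps used matplotlib 3.10.9, scipy 1.17.1, pandas 2.3.3 and numpy 2.4.6 under Python 3.11.15. Full values are given for members called with a change of at least 0.5 on the log2 scale and 1 FPKM or more on average in the higher group. Values per library are also given for the member with the highest mean in each role. From each further pathway list, the genes named are the 2 with the smallest p and the 1 with the highest mean. Tcf3 is named as well, because of its symbol. Members outside this rule were named after their values were seen. The members and lists were chosen with earlier results of these data known. Gene positions come from GENCODE M21 on GRCm38, in which all 55 members were found, and promoters from RefSeq on GRCm38.p6. Alternatives were other pseudocounts, filters and scalings, quantile normalization, the scaled columns (limma with a pseudocount of 10), blocks for replicate number or letter, means of the letters, and leaving out each library or letter.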

Additional observations from a re-analysis of the deposited data

Results flagged for a closer look

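In 6 of 90 groups of 4 libraries (45 members in 2 genotypes), 1 library stood far from the other 3, with a gap to its nearest neighbour above 0.829 of the whole range of the group, and chance gives about 1 in 20 such groups. Lrp5 in the double mutant had a gap of 0.902 of the range, with replicate 1 high at 9.17 FPKM. Nkd1 in the double mutant had 0.853, with replicate 4 high at 7.06 FPKM. Wnt6 in the wild type had 0.849, with replicate 1 low at 5.88 FPKM. Znrf3 in the wild type had 0.848, with replicate 1 low at 2.14 FPKM. Wnt3 in the double mutant had 0.838, with replicate 1 high at 0.960 FPKM. Fzd10 in the wild type had 0.831, with replicate 3 low at 0.184 FPKM.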

How the results depend on the processing

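Across the 23 alternatives, 21 to 26 members were called higher and 9 to 12 lower, and 58 to 67 of the other pathway genes were called. Of the 34 called members, 29 kept their call and direction in every alternative; the exceptions were Sfrp4, Lrp6, Axin1, Axin2 and Wnt10b, with their values in the report. The median log2 change of the members was 0.28 with a pseudocount of 0.1, 0.17 with no filter (all 55 members), 0.36 with a filter at 2 FPKM (fewer members), 0.29 with upper quartile scaling, 0.25 with quantile normalization, 0.29 in the scaled columns and 0.25 without letter A. Leaving out 1 library at a time gave medians of 0.21 to 0.28. Apart from the fewer or added members under the filters, the cause was not tested.

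Changes of sign were limited to members that did not pass. Wnt10a was at 0.0026 and Wnt2b at 0.0014 with upper quartile scaling. Fzd5 was at -0.014 and Rspo1 at -0.011 with quantile normalization. Wnt2b was at 0.014 without letter A and 0.079 without letter D. Without letter B, Wnt10a was at 0.025, Fzd9 at 0.072 and Rspo3 at -0.099. Without letter C, Wnt3 was at 0.053 and Wif1 at 0.099. Without 1 library, Wnt10a ranged from -0.15 to 0.027. The cause was not tested.

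With the replicate block, 23 members were higher, 10 lower and 63 other pathway genes called. Samples that share a number did not deviate together (correlations of -0.052, 0.0011, 0.0050 and -0.030). No pairing by number was thus seen, though such correlations cannot exclude a shared litter or preparation. Sfrp4 was the called member that lost its call with the block. Wnt16 and Fzd10 rest on as few as 7 fragments in a library (SE of 0.16 and 0.11). Among called members the SE was largest for Sfrp4 (0.24) and Sfrp5 (0.19), on at least 28 and 43 fragments.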

Other observations

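Several Wnt ligand genes lie side by side. On chromosome 1, Wnt6 and Wnt10a are on the same strand with 6193 bases between them. Wnt6 rose while Wnt10a did not pass, and the ratio of their FPKM values went from 3.39 ± 0.86 in the wild type to 8.66 ± 0.72 in the double mutant (SD, n = 4), without overlap. Wnt10b, which fell, lies 11706 bases from Wnt1, which was too low for a test. Wnt3, which did not pass, lies 24328 bases from Wnt9b, also too low for a test.

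The 10 members without a test reached at most 0.496 FPKM in any library, and in 3 of them the groups did not overlap. Among genes that were tested this held for 59.1%. The share among all untested entries was not computed, so whether 3 of 10 is unusual at this level is not known. Wnt11, a ligand known for signalling without beta-catenin, measured 0.426, 0.355, 0.349 and 0.485 FPKM in the double mutant and 0.149, 0.176, 0.125 and 0.174 FPKM in the wild type. Rspo2 measured 0.496, 0.490, 0.305 and 0.456 FPKM in the double mutant and 0.199, 0.101, 0.103 and 0.252 FPKM in the wild type. Rspo4 went the other way, with 0.0320, 0.0276, 0.0580 and 0.0432 FPKM in the double mutant and 0.250, 0.167, 0.308 and 0.189 FPKM in the wild type, on 1 to 9 fragments per library.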
